A study of Mus musculus with 2 samples.

Results

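The miRNA genes that lie inside the 4 Hox clusters were examined in mouse fetal liver. They were chosen by position, as Mir10a, Mir10b, Mir196a-1, Mir196a-2, Mir196b and Mir615, and are 6 of the 1973 annotated miRNA genes counted. Small RNA was sequenced from 2 libraries of liver at embryonic day 15.5, from healthy embryos of the strain B6NCrl with no treatment named. Replicate 1 was made from a pool of 78 embryos of both sexes and replicate 2 from a pool of 62. The labels give this 1 group, so no condition, stage or tissue could be compared. A pool averages its embryos, and the spread between the libraries is that of pools and library making. Whole liver at this stage also holds the blood-forming cells, and bulk counts cannot tell fewer cells of a type from less RNA per cell.

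Hox genes encode homeodomain transcription factors that set position along the body axis, and they are arranged in clusters in the order in which they act. The miRNA genes are embedded in these clusters and tend to share the expression of their Hox neighbours. The miR-10 genes lie upstream of Hox4 genes and the miR-196 genes upstream of Hox9 genes, and both families are known to repress Hox transcripts. miR-196 is known for directing cleavage of the Hoxb8 transcript. miR-10a, miR-10b and miR-196b are also known from blood progenitors and leukaemia.

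The mature sequences are shown because they decide which gene a read can be assigned to. A mature miRNA is cut from an arm of a hairpin precursor, 5p or 3p, and pairs with targets mainly through its seed, bases 2 to 8, which is in capitals here. Mature sequences of all 6 members were found in the RefSeq miRNA table of GRCm38.p6, and these are their 5p arms and the 3p arms that tell similar genes apart.
mmu-miR-10a-5p: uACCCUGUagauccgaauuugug
mmu-miR-10b-5p: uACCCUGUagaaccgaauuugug
mmu-miR-196a-5p: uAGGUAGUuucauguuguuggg
mmu-miR-196b-5p: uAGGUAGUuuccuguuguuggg
mmu-miR-196a-1-3p: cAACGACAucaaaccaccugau
mmu-miR-196a-2-3p: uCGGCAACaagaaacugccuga
mmu-miR-615-5p: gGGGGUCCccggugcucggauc
mmu-miR-615-3p: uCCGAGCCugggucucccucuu

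The 5p arms formed 2 seed groups. miR-10a-5p and miR-10b-5p shared the seed ACCCUGU, which no other mature miRNA of the table carried. Counted from 1 at the 5′ end of miR-10a-5p, they differed by the single substitution U12A, so a read that covers base 12 can be told apart. miR-196a-5p and miR-196b-5p shared the seed AGGUAGU, again with no other mature miRNA of the table, and differed by A12C. Those 7 bases also occur in let-7g-5p, where they start at base 3 instead of base 2, so the let-7 seed, GAGGUAG, is shifted by 1 base against that of miR-196. Neither arm of miR-615 shared its seed with another mature miRNA of the table.

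Mir196a-1 and Mir196a-2 encode the same mature 5p arm. The hairpins below, from the same table, have that arm in capitals.
Mir196a-1: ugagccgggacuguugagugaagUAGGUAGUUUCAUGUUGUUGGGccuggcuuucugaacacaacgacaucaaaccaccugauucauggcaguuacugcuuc
Mir196a-2: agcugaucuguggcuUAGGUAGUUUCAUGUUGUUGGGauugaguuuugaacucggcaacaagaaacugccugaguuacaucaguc
Of the 81 windows of 22 bases in the Mir196a-1 hairpin, 1 also occurred in another hairpin of the table, and that window was the mature 5p arm. The same was true of 1 of 64 windows in Mir196a-2. No window of Mir10a, Mir10b or Mir196b occurred in another hairpin. Mir615 has no hairpin in this table, so its windows were not checked. Over the table, 3.74% of 1577 mature sequences found in a hairpin lay in more than 1. The deposited gene counts hold no read that maps to more than 1 place. A full-length miR-196a-5p read is therefore lost from both genes. Their counts can hold reads of the 3p arm, of flanking bases, or of a 5p arm with a base beyond the shared 22. Such a base may be templated or added, so a 5p read need not come from the gene it matches. The levels of Mir196a-1 and Mir196a-2 are uncertain for these reasons, and the loss of shared reads can make them too low.

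The positions of the 6 genes followed their families. Coordinates are of GRCm38 (mm10), from annotation release M21. Mir10a (ENSMUSG00000065519.1) lies on chromosome 11 at 96317165 to 96317274, 1495 bases upstream of the coding sequence of Hoxb4, and overlaps no other annotated transcript. Mir10b (ENSMUSG00000065500.2) lies on chromosome 2 at 74726070 to 74726137, 1141 bases upstream of the coding sequence of Hoxd4, in introns of Hoxd3 and Hoxd4 transcripts. Both miR-10 genes thus precede a Hox4 gene at a similar distance.

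The 3 miR-196 genes each precede a Hox9 gene. Mir196b (ENSMUSG00000065443.1) lies on the minus strand of chromosome 6 at 52230081 to 52230165, between Hoxa10 and Hoxa9, in an exon of 2 noncoding Hoxa9 transcripts and an intron of another. Mir196a-1 (ENSMUSG00000065546.1) lies on chromosome 11 at 96265164 to 96265265, 6.28 kb upstream of the Hoxb9 coding sequence, and overlaps no other annotated transcript. Mir196a-2 (ENSMUSG00000065488.1) lies on chromosome 15 at 102973350 to 102973434, between Hoxc10 and Hoxc9, in an intron of a noncoding transcript of Hoxc5. Mir615 (ENSMUSG00000076010.1) lies on chromosome 15 at 103014910 to 103015001, in an intron of the protein-coding Hoxc5 transcript. The identifiers of Mir10b and Mir196a-2 carry another version number in release M21, so the positions used in counting may differ. The M21 annotation also places the miRNA gene Gm44463 in the Hoxd cluster, which is not analysed here.

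**Figure D1:**
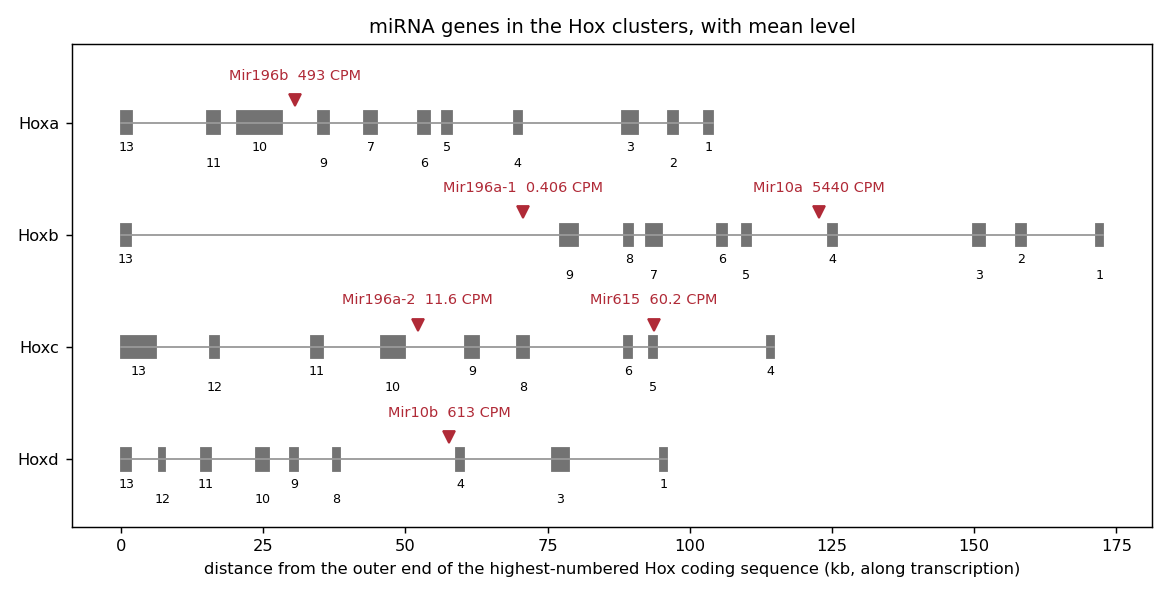
Map of the 4 Hox clusters, with distance in kb along the direction of transcription on the x axis and a cluster in each row. Grey boxes are Hox coding sequences with their numbers, and red triangles are the 6 miRNA genes with their mean level in CPM (sense counts per 1000000). The miR-10 genes sit just before Hox4 and the miR-196 genes before Hox9, and the highest level, 5440 CPM, belongs to Mir10a in Hoxb.

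Levels are sense counts, those on the gene's own strand, per 1000000 sense miRNA counts of the library (CPM). Libraries held 5529166 sense counts in replicate 1 and 3169882 in replicate 2, and the liver miRNA Mir122 led both, at 175539 ± 9614 CPM (SD, n = 2). Intervals given with a library's value are exact Clopper-Pearson 95% intervals. They cover counting error within a library only. No molecular identifier is named in the labels, and PCR copies are not separate molecules, so the intervals can be too narrow even for that error. Where nothing is counted, a true level of up to 3 counts is possible, which is 0.543 CPM at the depth of replicate 1 and 0.946 CPM at that of replicate 2. A read covers a whole small RNA, so counts were not divided by length, and levels per 100 bases of precursor are given where genes are compared.

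Mir10a dominated the assigned counts of the Hox cluster miRNA genes. It had 29221 counts in replicate 1, or 5285 CPM (5225 to 5346), and 17734 counts in replicate 2, or 5595 CPM (5513 to 5677), and the intervals did not overlap. The mean was 5440 ± 219 CPM (SD, n = 2), which placed it at rank 40 of all miRNA genes in each library. Mir10a held 82.2% ± 0.639 of the counts of the 6 genes (SD, n = 2), which lack the reads shared by Mir196a-1 and Mir196a-2. The genes next to it in level were Mir744 at 5628 ± 471 CPM and Mir30d at 5361 ± 306 CPM, and it differed from each by less than the spread of that gene between the libraries.

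Mir10b, which shares its seed with Mir10a, was lower. It had 3446 counts in replicate 1, or 623 CPM (603 to 644), and 1912 in replicate 2, or 603 CPM (576 to 631). The libraries' intervals overlapped, and the mean was 613 ± 14.2 CPM (SD, n = 2). Mir10a counts were 8.48 times those of Mir10b in replicate 1 (8.19 to 8.79) and 9.28 times in replicate 2 (8.85 to 9.73), and these intervals did not overlap. Per 100 bases of precursor the genes stood at 4945 and 902 CPM. A Mir10a read with an error at base 12 could be counted as Mir10b, and the part of such reads was not tested.

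Mir196b had the most assigned counts of the miR-196 family, in which Mir196a-1 and Mir196a-2 lose the reads they share. It had 2758 counts in replicate 1, or 499 CPM (480 to 518), and 1542 in replicate 2, or 486 CPM (462 to 511). The mean was 493 ± 8.74 CPM (SD, n = 2), at rank 119 of all miRNA genes. Mir10b exceeded it in both libraries, 1.25-fold in replicate 1 (1.19 to 1.31) and 1.24-fold in replicate 2 (1.16 to 1.33). That gap of 121 CPM was larger than the SD of either gene. Per 100 bases of precursor Mir10b and Mir196b stood at 902 and 580 CPM. A miR-196a-5p read with an error at base 12 could be counted as Mir196b, and the part of such reads was not tested.

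Mir615, the miRNA of the Hoxc5 intron, followed. It had 271 counts in replicate 1, or 49.0 CPM (43.4 to 55.2), and 226 in replicate 2, or 71.3 CPM (62.3 to 81.2). These intervals did not overlap, and the mean was 60.2 ± 15.8 CPM (SD, n = 2), below the median of 135 CPM of the 352 genes with at least 10 counts in both libraries. Both arms are rich in G and C, which made up 77.3% of miR-615-5p, against 40.9% to 45.5% in the 5p arms of the other members. They made up 63.6% of miR-615-3p, against 36.4% to 59.1% in the other 3p arms, of which miR-196b-3p was highest. Per 100 bases of precursor Mir615 stood at 65.4 CPM.

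Few counts were assigned to either gene of miR-196a. Mir196a-2 had 53 counts in replicate 1, or 9.59 CPM (7.18 to 12.5), and 43 in replicate 2, or 13.6 CPM (9.82 to 18.3), with overlapping intervals. Its mean was 11.6 ± 2.81 CPM (SD, n = 2). Mir196a-1 had 1 count in replicate 1 and 2 in replicate 2, which is within what a count of 0 allows. The ratio of Mir196a-2 to Mir196a-1 was 53 in replicate 1, with a counting interval of 9.11 to 2132, and 21.5 in replicate 2 (5.60 to 183). As these genes lose the reads of the mature arm they share, neither their levels nor this ratio measure miR-196a-5p.

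**Figure D2:**
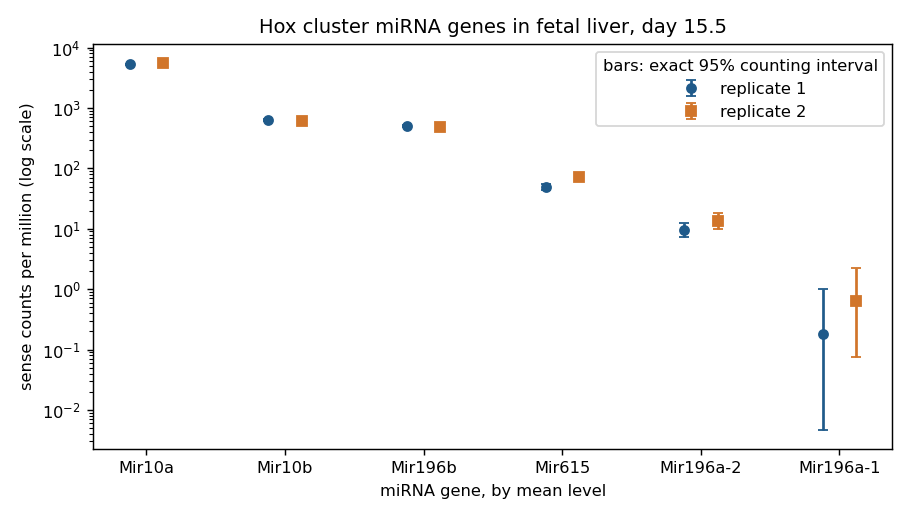
Level of each of the 6 genes in each library, in CPM on a log scale, with circles for replicate 1, squares for replicate 2 and bars for exact 95% counting intervals (smaller than the symbol for the 3 highest genes). Mean levels run from 5440 CPM for Mir10a to 0.406 CPM for Mir196a-1, and the intervals of the libraries do not overlap for Mir10a and Mir615.

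The order of the 6 genes was Mir10a, Mir10b, Mir196b, Mir615, Mir196a-2 and Mir196a-1. No neighbours in it had overlapping counting intervals in either library, and each gap exceeded the larger SD of the pair. All 6 genes kept their place per 100 bases of precursor. The places of Mir196a-2 and Mir196a-1 are those of their assigned reads only. With at least 10 counts in both libraries 5 of the 6 genes were detected, all but Mir196a-1.

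**Figure D3:**
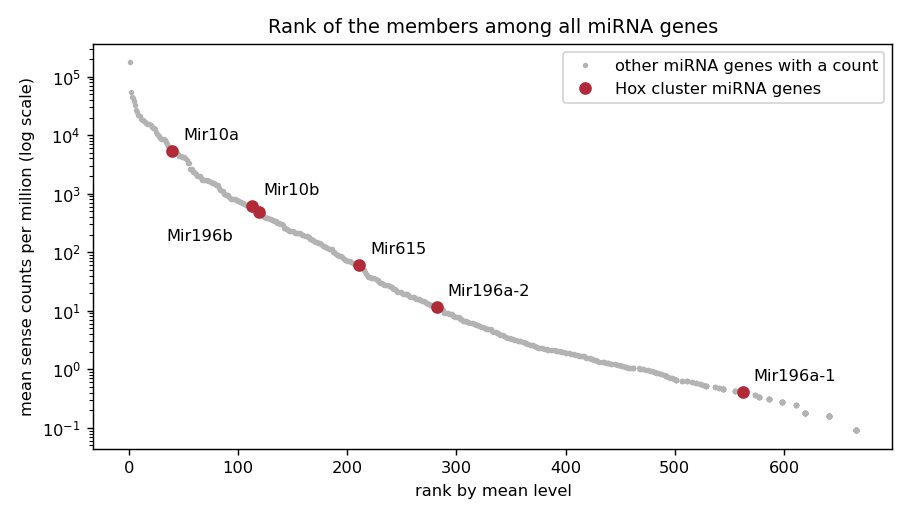
Mean level of every miRNA gene with a sense count, in CPM on a log scale, against its rank. Red points are the 6 Hox cluster genes, which run from rank 40 (Mir10a) through rank 113 (Mir10b), 119 (Mir196b), 211 (Mir615) and 282 (Mir196a-2) to rank 562 (Mir196a-1).

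By cluster, most counts came from Hoxb. The 6 genes together held 0.647% of sense counts in replicate 1 (0.640 to 0.653) and 0.677% in replicate 2 (0.668 to 0.686). The Hoxb genes made up 82.2% ± 0.644 of this sum, the Hoxd gene 9.27% ± 0.516, the Hoxa gene 7.45% ± 0.374 and the Hoxc genes 1.08% ± 0.246 (SD, n = 2). These shares are of assigned reads only, without those shared by Mir196a-1 in Hoxb and Mir196a-2 in Hoxc. The Hoxd and Hoxa shares can therefore be too high and the Hoxc share too low, which the SD does not cover. Genes of 1 cluster did not share a level. In Hoxb, Mir10a and Mir196a-1 lie 51.9 kb apart on the same strand and stood at 5440 and 0.406 CPM. In Hoxc, Mir196a-2 and Mir615 lie 41.5 kb apart and stood at 11.6 and 60.2 CPM. The lower gene of each pair is a miR-196a gene, whose shared reads are not in the counts.

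The miR-10 family also has genes outside the Hox clusters, Mir99a, Mir99b and Mir100, and these were more abundant as a group. Their 5p arms carry another seed, ACCCGUA, and share a run of 11 bases (GUAGAUCCGAA) with miR-10a-5p in the case of miR-100-5p. Mir99a stood at 15698 ± 1034 CPM, Mir99b at 6253 ± 152 CPM and Mir100 at 1537 ± 138 CPM (SD, n = 2). Together they had 4.10 times the counts of Mir10a and Mir10b in replicate 1 and 3.67 times in replicate 2. Per 100 bases of precursor Mir99a stood at 24151 CPM, Mir99b at 8933 CPM and Mir100 at 1922 CPM, so Mir10a lay between Mir99b and Mir100 on either scale.

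Differences between the pools were asked of every gene with at least 10 counts summed, by a two-sided exact binomial test on TMM-scaled library sizes with Benjamini-Hochberg adjustment over all 456 such genes. The test compares these libraries, not conditions. Over all genes 39.0% were called, 18.2% as higher in replicate 2 and 20.8% as lower. Of the 5 members tested, 2 were called, both higher in replicate 2, a share near that of all genes and so not a result about the members. Their median log2 ratio of replicate 2 over replicate 1 was 0.05, and that of all genes tested was -0.04. Mir196a-1 had too few counts to be tested.

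Mir615 differed most among the tested members. It was 1.42-fold higher in replicate 2, a log2 ratio of 0.50 (95% interval 0.24 to 0.76, exact binomial test, adjusted p = 0.000607). Genes of like level also spread widely. Over the 48 genes between 30 and 120 CPM, a range chosen after the values were seen, the SD of the log2 ratio was 0.42, 17 were called and 5 lay further from 0 than Mir615. Its neighbour in Hoxc, Mir196a-2, had a log2 ratio of 0.46, with an interval of -0.15 to 1.07 that includes 0 (exact binomial test, adjusted p = 0.257). The ratio of Mir615 to Mir196a-2 was 5.11 in replicate 1 (3.80 to 7.00) and 5.26 in replicate 2 (3.78 to 7.46). It is a ratio of assigned reads only, as Mir196a-2 loses the reads of the arm shared with Mir196a-1, and it can be too high. The genes nearest in level to Mir615, Mir224 and Mir345, had log2 ratios of -0.16 and 0.11.

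Markers of other cells also differed between the pools. The skeletal muscle list, led by Mir206, summed to 1439 CPM in replicate 1 and 2653 CPM in replicate 2, a ratio of 1.84. Of its 6 genes 5 are in the tables, 2 were detected (Mir206 and Mir133b, both called higher), and Mir133a-2 was at 0 in both libraries. The other 9 marker lists had ratios of replicate 2 over replicate 1 between 0.627 and 1.02. The ratios of lists are of CPM, while calls and log2 ratios are on TMM-scaled sizes. Scaling by total sense counts instead of TMM raised log2 ratios by a median of 0.036. They were 0.925 for the hepatocyte list, led by Mir122, 0.973 for the endothelial list (Mir126a), 0.684 for the erythroid list (Mir451a) and 0.936 for the leukocyte list (Mir223). They were 1.02 for the progenitor list (Mir130a), 0.962 for the mesenchymal list (Mir143), 0.802 for the pancreas list (Mir375), 0.781 for the epithelium list (Mir429) and 0.627 for the neural list (Mir137). Not among the genes counted were Mir142 (leukocyte), Mir126b (endothelial), Mirlet7e (progenitor) and Mir9-1 (neural), so these sums lack them. Mir223 thus set the leukocyte sum. Reads on the strand opposite Mir142b, 193651 in replicate 1 and 131496 in replicate 2, entered no list. They outnumbered the counts of Mir223, 107680 and 57695. Relative to the sense counts of each library they were more frequent in replicate 2, unlike Mir223. With them the leukocyte sum would be higher in replicate 2, so the ratio of 0.936 holds only for the 3 genes counted. A summed ratio need not hold for each gene of a list. In the erythroid list only Mir451a was called lower (log2 ratio -1.11), and it set the sum, while Mir144 and Mir486 were called higher (both 0.16). Called lower were 6 of 6 hepatocyte genes, 7 of 7 epithelium genes, 1 of 1 endothelial gene, 1 of 3 leukocyte genes, 1 of 4 pancreas genes and 2 of 4 tested neural genes, with none called higher in these lists. Of 7 mesenchymal genes 2 were called higher and 2 lower. The 3 progenitor genes that were counted were not called, with adjusted p of 0.0613 to 0.463 in the exact binomial test. In the neural list Mir124a-1, Mir124a-2, Mir124a-3 and Mir9-2 were at 0 in both libraries. The part of such cells in the ratio of Mir615 was not tested.

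Mir10a was called with a small difference. It was 1.03-fold higher in replicate 2, a log2 ratio of 0.05 (95% interval 0.02 to 0.07, exact binomial test, adjusted p = 0.00338). Among the 187 genes at or above 100 CPM, log2 ratios had an SD of 0.20, so the difference of Mir10a is within the usual spread between the pools. Mir10b and Mir196b were not called, with log2 ratios of -0.08 (-0.16 to -0.00239) and -0.07 (-0.16 to 0.02) (exact binomial test, adjusted p = 0.100 and 0.225). The interval of Mir10b excludes 0, as intervals are not adjusted for the number of genes. Mir99a and Mir100 were lower in replicate 2 (-0.17 and -0.22), and Mir99b had a log2 ratio of 0.01 and was not called.

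**Figure D4:**
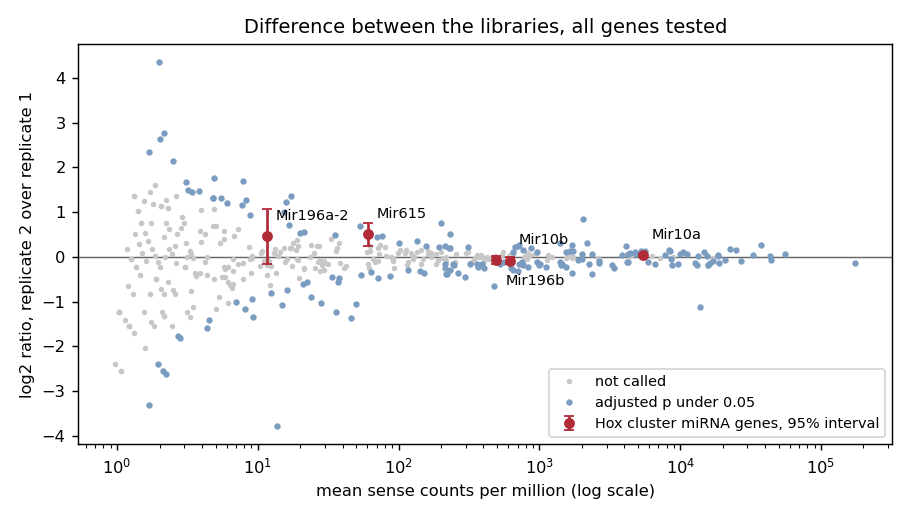
Log2 ratio of replicate 2 over replicate 1 against mean level in CPM (log scale) for the genes tested, without 2 genes that had 0 counts in a library. Blue points passed the exact binomial test and grey points did not. Red points are the 5 tested Hox cluster genes with their 95% intervals, and Mir615, at 0.50, is the member whose interval lies furthest from 0.

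On the strand opposite to each of the 6 genes, 0 reads were counted in either library, which allows up to 3 counts per gene and library. The genes next in level to the other members were Mir872 (622 CPM) and Mir542 (605 CPM) around Mir10b, and Mir320 (525 CPM) and Mir503 (487 CPM) around Mir196b. Around Mir196a-2 they were Mir547 and Mir378d, with 11.58 and 11.56 CPM. Likeness here is closeness of the mean over 2 libraries only.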

How the data were processed

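For each library the authors deposited a table of raw counts of reads per miRNA gene, without normalization. Size selection kept RNA shorter than 30 nucleotides, per the labels. Counting used mm10 and annotation release M4, per the text deposited beside the tables. The aligner is not given in the sources used here, nor is the counter. Of all reads, 29.3% and 31.1% mapped to several places and stayed out of the gene counts, and unassigned reads entered no library size. Names came from release M21, which matched 1894 of 1973 identifiers. CPM are sense counts divided by the sum of sense counts over miRNA genes. TMM factors were computed from genes with at least 10 counts in both libraries with edgeR 4.0.16, and DESeq2 1.42.0 gave alternative size factors. Log2 ratios are replicate 2 over replicate 1. The threshold was an adjusted p of 0.05. Named were the members, the genes next to them in level, Mir99a, Mir99b, Mir100 and leading marker genes. Members, lists and tests were chosen with earlier results of these data known.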

Additional observations from a re-analysis of the deposited data

Results flagged for a closer look

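Reads outside the gene counts were numerous in both libraries. In replicate 1, 4302465 reads mapped to several places, and in replicate 2 there were 2632729. They are given here because no comparison above uses these reads. Reads of the mature arm shared by Mir196a-1 and Mir196a-2 belong to this class, but how many of them do cannot be read from the tables.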

How the results depend on the processing

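The summed share of the 6 genes was 0.662% of sense counts. It was 0.603% with counts of both strands, 0.803% without Mir122 in the total and 0.249% of all reads of a library, which follows from the larger or smaller totals. Without replicate 1 it was 0.677% and without replicate 2 it was 0.647%. All 6 genes kept their place in the order per 100 bases and in either library alone. Counts of both strands could not change the order, as 0 reads lay on the strand opposite to these genes. No setting restored the reads shared by Mir196a-1 and Mir196a-2, so neither their places nor the summed share were tested against that loss. The number of genes called was between 161 and 186 over the 7 other settings, against 178. The split of calls was 97 higher and 80 lower with scaling by total counts, and 83 and 95 with TMM. Mir10a and Mir615 were called under all 8 settings, with log2 ratios of 0.05 to 0.08 and 0.50 to 0.54, and adjusted p of 1.64e-08 to 0.00513 and 0.000186 to 0.000923 in the exact binomial test. Mir10b, Mir196b and Mir196a-2 were called under none, with adjusted p from 0.0818 to 0.581. TMM factors from genes with 10 counts summed were an alternative chosen after seeing the data. The test needs both libraries, so leaving out a replicate gives it no value. At this depth Mir196a-1 had too few counts to be tested, and the interval of the log2 ratio of Mir196a-2, -0.15 to 1.07, leaves its direction unsettled.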
